A study of Homo sapiens with 2 samples.

Results

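Chromosome 13 carries its genes on a long arm, 13q, and 57 genes spread along that arm were followed in MKN45, a human gastric cancer cell line, and in MKN45P, a highly metastatic derivative of it. The list was chosen by gene position and with the measured difference between these 2 arrays already known, so every difference below is a description and none is a test. All 57 were found among the 18923 gene symbols with a probeset, and 56 of the 57 were measured, among 13130 measured genes in all. A measured gene had at least 4 probesets, the small probe groups that an exon array places along a gene, and a median level of at least 1.92, the median of all probesets. NBEA, a neuronal trafficking protein, was the gene left out, at 1.71 on the MKN45 array and 1.76 on the MKN45P array over 61 probesets. HMGB1 and RCBTB2 lay just inside the filter, at 1.95 and 2.02 in MKN45.

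The study had 1 array of total RNA per line, labelled as a cell lysate of each. Per the labels both were cultured alike, in RPMI 1640 medium with fetal bovine serum, glutamine, penicillin and streptomycin, were detached with trypsin and EDTA, and received no further agent. Nothing in the labels says how MKN45P was derived or whether it is a clone. With a single array per line there is no replicate of either culture, no p-value can be given, and the number of arrays limits the precision; the interquartile range printed with a difference is the spread over the probesets of 1 gene. Epithelial markers were present on both arrays: of 8 such markers 7 were in the files, at a median of 5.69 for MKN45 and 5.78 for MKN45P. They ran from the keratin gene KRT8, at 3.31 and 3.13, to the cadherin gene CDH1, at 10.26 and 10.74. The 6 fibroblast markers had median levels of 2.01 and 1.96, the 5 endothelial markers 2.06 and 1.87, and the 3 immune markers in the files 1.79 and 1.84, all close to the floor of the scale. The 4 mesothelial markers had medians of 5.79 and 4.50, and UPK3B was the gene of these lists that differed 2-fold or more (-1.06).

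The long arm of chromosome 13 holds genes of many unrelated functions. They include RB1, the retinoblastoma gene and founding tumour suppressor of the cell cycle, BRCA2 of homologous recombination, the Mediator kinase gene CDK8, and KLF5, a zinc finger factor of gut epithelium. Gains and losses of whole chromosome arms are common in gastrointestinal cancers, and genes of such an arm can shift in RNA level together although they share no pathway. DNA copy number was not measured here, and more gene copies and more transcription per copy cannot be told apart on these arrays, nor can fewer expressing cells and less RNA per cell.

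The 13q genes lay higher in MKN45P as a group. Their median difference, MKN45P minus MKN45, was 0.43 in log2 units (interquartile range over 56 genes 0.13 to 0.67), where the median over all measured genes was 0.03 (-0.13 to 0.30). Of the 56 genes, 45 were higher in MKN45P by any amount, against 54.9% of all measured genes. The difference was 2-fold or more upward in 7 genes (12.5%), against 4.58% of all measured genes, and 1.5-fold or more upward in 16 (28.6%), against 12.7%. No listed gene was lower by 2-fold, against 1.2% of all measured genes, or by 1.5-fold, against 3.87%. In 35 genes (62.5%) the excess in MKN45P was seen at 75% or more of the gene's probesets, against 27.5% of all measured genes. The list was drawn up on this same contrast, so these shares describe it and support nothing further. The count past 2-fold upward was 12 of 54 genes over probesets with signal alone and 14 when the median levels were subtracted instead; over all measured genes these settings gave 11.4% and 9.62%.

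**Figure D1:**
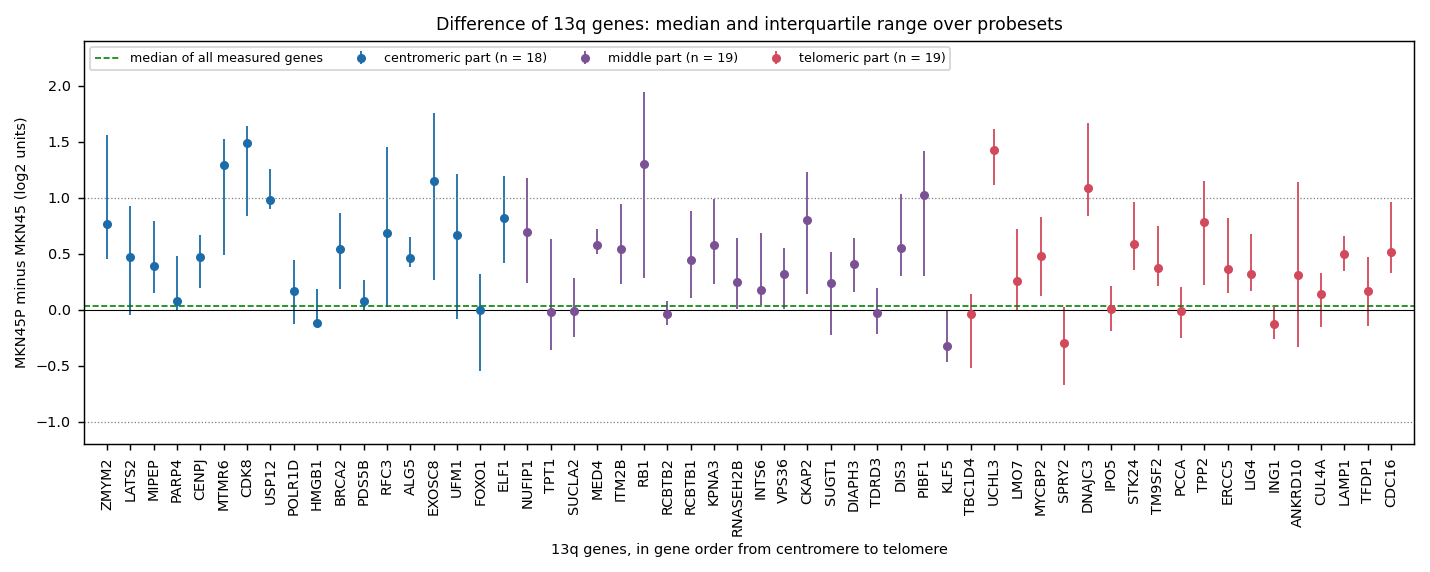
Difference between MKN45P and MKN45 for each of the 56 measured 13q genes (points, log2 units on the vertical axis), in gene order along the arm, with bars for the interquartile range over the gene's probesets; colours mark the 3 parts of the list, dotted lines 2-fold, and the dashed line the median of all measured genes. Of the 56 points 45 lie above 0, and the 7 at or above 2-fold come from all 3 parts.

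The 7 genes past 2-fold had unlike functions and came from all 3 parts of the list, with MTMR6 and CDK8 next to each other in it. CDK8, the kinase of the Mediator complex that links transcription factors to RNA polymerase, had the highest difference of the listed genes. Its level was 4.14 in MKN45 and 5.62 in MKN45P, a difference of 1.49 (0.84 to 1.64) with 13 of 15 probesets higher. UCHL3, a hydrolase that frees ubiquitin and related modifiers, stood at 6.35 in MKN45 and 7.91 in MKN45P. Its difference of 1.42 (1.11 to 1.61) was seen at all 10 probesets, from 0.67 to 2.49. RB1 stood at 2.82 in MKN45 and 4.78 in MKN45P, a difference of 1.30 (0.28 to 1.94) with 26 of 30 probesets higher. The tumour suppressor was thus higher, not lower, on the array of the metastatic line, although its probesets were widely spread.

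DNAJC3 encodes a co-chaperone of the endoplasmic reticulum that restrains the kinases of the stress response. It stood at 6.84 in MKN45 and 8.23 in MKN45P, a difference of 1.09 (0.84 to 1.67), and all 14 probesets were higher, by 0.55 to 1.98. MTMR6, a phosphoinositide phosphatase of endosomes, stood at 4.41 and 5.46, a difference of 1.29 (0.48 to 1.52) with 15 of 19 probesets higher. EXOSC8, a core subunit of the RNA exosome, stood at 2.24 and 5.44. The median over its 15 probesets was 1.15 (0.27 to 1.75) and every probeset was higher. In this gene the difference of the median levels, 3.20, was far above the median of the differences, and 7 of the 15 probesets had a mean of both arrays below 2.77, the 75th percentile over all probesets. PIBF1, a protein of centriolar satellites and cilia, stood at 2.36 and 3.10, a difference of 1.03 (0.30 to 1.42) at 23 of 23 probesets. The deubiquitinating enzyme USP12 followed just under 2-fold, at 4.69 and 5.94 and with a difference of 0.98 (0.89 to 1.25) over 5 probesets.

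**Figure D2:**
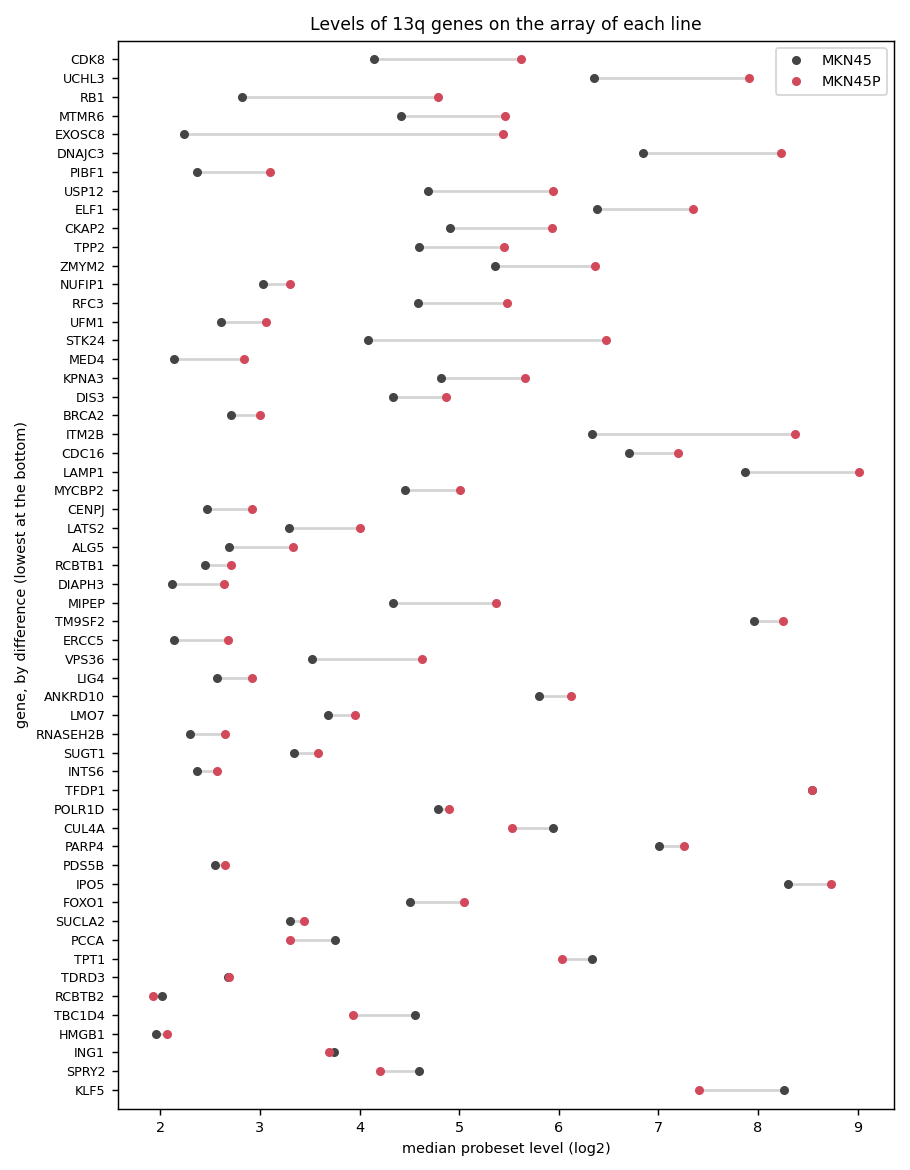
Median probeset level (log2, horizontal axis) of each measured 13q gene on the MKN45 array (grey) and the MKN45P array (red), ordered by difference with the lowest gene at the bottom. The gap is widest for EXOSC8, 2.24 against 5.44; a few genes such as CUL4A (5.95 and 5.53) have levels in the opposite order to their median difference (0.14).

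Promoters of the listed genes were searched for a few short motifs. RefSeq sequence of GRCh38.p14, from 250 bases before to 50 after the transcription start, was used for the 47 genes whose window lies at the edge of the gene span. The CCAAT box (CCAAT on either strand), bound by nuclear factor Y, was in 17 windows (36.2%) and in 35.9% of 25453 windows of all genes. The E2F-type letters TTTCCCGC were in 4 windows (8.51%), those of RFC3, DIS3, PIBF1 and CDC16, in 1.67% of all windows and in 2.55% of the 9552 windows of measured genes. TTTGGCGC was in none of the 47 and in 0.672% of all. The endoplasmic reticulum stress element (CCAAT, 9 bases, CCACG) was also in none, the window of DNAJC3 included, and in 0.0786% of all. The interferon response element core (GAAA, 2 bases, GAAA) was in 1, that of FOXO1, and in 3.60% of all. The motifs may overlap one another, and a match is a run of letters, not a shown site.

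DIS3 and PIBF1 are head to head, with starts 233 bases apart, so their windows share the same E2F-type and CCAAT letters and the 4 windows hold 3 separate matches. Both genes were higher in MKN45P, at 0.55 for DIS3 and 1.03 for PIBF1, a cilium gene described above. The 200 bases before the start of PIBF1, RFC3, CDC16 and DNAJC3 are printed because these genes carry the E2F-type letters or, for DNAJC3, a large difference and a CCAAT box; capitals mark these motifs, and all 4 are on the plus strand of GRCh38.p14, at chr13:72781933-72782132, chr13:33817949-33818148, chr13:114234697-114234896 and chr13:95676939-95677138.
PIBF1: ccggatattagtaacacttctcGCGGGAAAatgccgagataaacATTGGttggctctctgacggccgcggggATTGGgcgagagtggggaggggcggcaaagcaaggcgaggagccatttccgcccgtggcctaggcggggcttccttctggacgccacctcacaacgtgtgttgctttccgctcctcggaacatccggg
RFC3: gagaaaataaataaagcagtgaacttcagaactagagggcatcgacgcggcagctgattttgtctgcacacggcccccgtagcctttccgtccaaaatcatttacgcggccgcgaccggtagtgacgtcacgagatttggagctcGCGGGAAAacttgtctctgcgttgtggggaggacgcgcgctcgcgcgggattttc
CDC16: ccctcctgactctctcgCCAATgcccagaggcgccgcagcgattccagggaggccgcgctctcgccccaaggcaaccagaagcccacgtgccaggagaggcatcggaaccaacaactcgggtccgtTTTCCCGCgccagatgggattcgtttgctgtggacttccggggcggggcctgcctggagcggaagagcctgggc
DNAJC3: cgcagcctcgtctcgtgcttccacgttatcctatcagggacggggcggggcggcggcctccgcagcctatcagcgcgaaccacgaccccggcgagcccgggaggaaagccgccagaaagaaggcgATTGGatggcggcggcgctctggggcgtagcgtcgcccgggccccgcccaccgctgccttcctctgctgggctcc

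Growth control and cell cycle genes differed most in CDK8 and RB1, and the other 4 of the 6 stayed within 2-fold. CDC16, a subunit of the anaphase-promoting complex, stood at 6.71 in MKN45 and 7.20 in MKN45P and was higher by 0.51 (0.33 to 0.96) at 24 of 25 probesets. LATS2, a kinase of the Hippo pathway, stood at 3.30 and 4.001, a difference of 0.47 (-0.05 to 0.93) with 15 of 20 probesets higher. TFDP1, the dimerization partner of the E2F factors that RB1 restrains, stood at 8.54 on both arrays, with a difference of 0.17 over 7 probesets. ING1, a chromatin reader that acts with p53, stood at 3.75 and 3.69, with a difference of -0.13 (-0.26 to 0.03) and 14 of 20 probesets lower. The median of the 6 genes was 0.49.

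Genes of DNA repair, replication and chromatin were higher in 7 of 8 cases, none past 2-fold, with a median of 0.28. RFC3, a subunit of the clamp loader of the replication fork, was the highest, at 4.59 in MKN45 and 5.48 in MKN45P (difference 0.69, 0.02 to 1.45). BRCA2 stood at 2.71 and 2.998, a difference of 0.54 (0.19 to 0.87) with 35 of 40 probesets higher. ERCC5, the endonuclease that cuts 3′ of a lesion in nucleotide excision repair, differed by 0.36 with 24 of 27 probesets higher. LIG4, the ligase of end joining, stood at 2.57 and 2.92 and differed by 0.31 (0.16 to 0.67) with 9 of 10 probesets higher. Over the probesets with signal, those whose mean of both arrays was 2.77 or more, ERCC5 differed by 1.06 and LIG4 by 0.74. On the same basis RFC3 was at 1.13 and BRCA2 at 0.66. RNASEH2B (0.25), the poly(ADP-ribose) polymerase family gene PARP4 (0.08) and the cohesin regulator PDS5B (0.07) had the smallest upward differences. Over probesets with signal RNASEH2B was at 0.63, PDS5B at 0.25 and PARP4 at 0.08. HMGB1, an abundant chromatin protein, was listed at 1.95 and 2.06 with a difference of -0.12 (-0.14 to 0.18) and 6 of 11 probesets lower. Only 3 of its probesets had signal, and over these it was at -0.58. HMGB1 has many near-identical processed copies elsewhere in the genome, as has TPT1, and the values of both genes are uncertain.

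All 6 genes of the centrosome, spindle and cytoskeleton were higher in MKN45P, with a median of 0.44. Besides PIBF1, the spindle protein gene CKAP2 stood at 4.91 in MKN45 and 5.93 in MKN45P, a difference of 0.80 (0.14 to 1.23) with 25 of 29 probesets higher. CENPJ, which sets the length of centrioles, differed by 0.47 with 28 of 31 probesets higher. The formin DIAPH3 differed by 0.41 with 28 of 34, LMO7 by 0.26 with 32 of 43, and SUGT1, a co-chaperone of kinetochore assembly, by 0.24 with 5 of 7. Over probesets with signal CKAP2 was at 1.16, CENPJ at 0.65, DIAPH3 at 0.66, LMO7 at 0.60 and SUGT1 at 0.33.

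The ubiquitin and protein turnover genes had the highest median of the 9 role groups, 0.57, and 7 of the 8 were higher. After UCHL3 and USP12 came TPP2, a large peptidase that trims peptides released by the proteasome. TPP2 stood at 4.60 in MKN45 and 5.45 in MKN45P, with a difference of 0.79 (0.22 to 1.15) and 38 of 43 probesets higher. UFM1, the ubiquitin-fold modifier, differed by 0.66 (-0.08 to 1.21 over 12 probesets). MYCBP2, a giant ubiquitin ligase with 99 probesets, differed by 0.48 (0.12 to 0.83) and 83 of them were higher. RCBTB1 differed by 0.45 and the cullin gene CUL4A by 0.14. RCBTB2 was at -0.04 (-0.14 to 0.07) with 13 of 22 probesets lower, and its level was low on both arrays (2.02 and 1.93). Over its 5 probesets with signal RCBTB2 was at -0.23. Over theirs RCBTB1 was at 1.24, UFM1 at 1.14, TPP2 at 0.83, MYCBP2 at 0.49 and CUL4A at 0.07.

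RNA synthesis and processing genes were higher in 6 of 7 cases, with a median of 0.55. After EXOSC8 the highest were NUFIP1, a factor of small nucleolar RNP assembly, with 0.69 over 4 probesets, and the Mediator subunit MED4, with 0.58 (0.50 to 0.72) and 9 of 10 probesets higher. DIS3, the catalytic nuclease of the exosome and thus a partner of EXOSC8, stood at 4.34 in MKN45 and 4.87 in MKN45P, a difference of 0.55 with 29 of 31 probesets higher. INTS6 and POLR1D, the latter shared by RNA polymerases I and III, differed by 0.17 each; over probesets with signal INTS6 was at 0.80 and POLR1D at 0.29. TDRD3, a methylarginine reader, stood at 2.68 in MKN45 and 2.69 in MKN45P, with a difference of -0.03 (-0.22 to 0.19) and 12 of 21 probesets lower. Over probesets with signal TDRD3 was at -0.19.

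Secretory pathway, membrane traffic and nuclear import genes were higher in 9 of 10 measured cases, with a median of 0.48. KPNA3, an importin alpha, stood at 4.82 in MKN45 and 5.66 in MKN45P and was higher by 0.57 at all 19 probesets. LAMP1, the main glycoprotein of the lysosomal membrane, stood at 7.87 and 9.01, a difference of 0.50 (0.35 to 0.66) with 15 of 17 probesets higher. ITM2B, a membrane protein of the secretory route, differed by 0.54 (0.23 to 0.95), ALG5 of N-glycan assembly by 0.47, TM9SF2 by 0.37 and VPS36 of endosomal sorting by 0.32. IPO5, an importin beta family gene, was at 0.01 with 18 of 34 probesets higher. TBC1D4, a regulator of glucose transporter traffic, stood at 4.56 and 3.94, with a difference of -0.04 (-0.52 to 0.14) and 15 of 29 probesets lower. Over probesets with signal TBC1D4 was at -0.13.

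The transcription factors divided by gene. ELF1, an ETS family factor, stood at 6.39 in MKN45 and 7.35 in MKN45P and was higher by 0.82 (0.41 to 1.19) at all 14 probesets. ZMYM2, a zinc finger protein of chromatin repressor complexes, stood at 5.36 and 6.36, with a difference of 0.77 (0.45 to 1.56) and 37 of 38 probesets higher. FOXO1, a forkhead factor that insulin signalling keeps out of the nucleus, was at -0.01 with 4 of 8 probesets higher. KLF5 had the lowest difference of all 56 genes, -0.32 (interquartile range -0.46 to -0.00), with 13 of 18 probesets lower and levels of 8.26 in MKN45 and 7.40 in MKN45P. Its 3 brightest probesets, between 10.64 and 11.56 on both arrays, differed by -0.24, -0.39 and -0.44. SPRY2, an inhibitor of receptor tyrosine kinase signalling, was the next lowest at -0.29 (-0.67 to 0.03 over 8 probesets; levels 4.60 and 4.21).

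**Figure D3:**
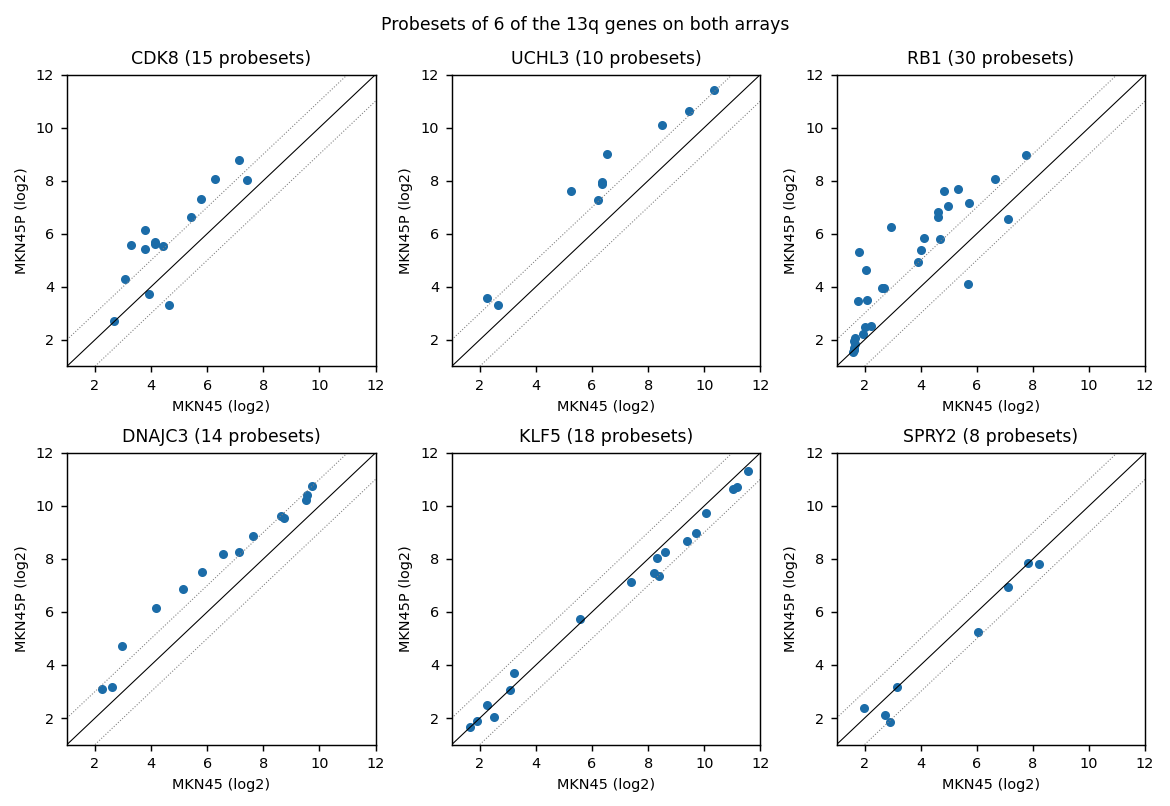
Each probeset of 6 genes on the MKN45 array (horizontal, log2) and the MKN45P array (vertical, log2); the solid line marks equal values and the dotted lines 2-fold. All 10 probesets of UCHL3 and all 14 of DNAJC3 lie above the line, CDK8 and RB1 each have a few below it, and 13 of 18 of KLF5 and 5 of 8 of SPRY2 lie below.

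Of the 3 mitochondrial and metabolic genes 1 was higher. MIPEP, a peptidase that matures imported proteins, differed by 0.39 with 16 of 20 probesets higher. SUCLA2, a subunit of succinyl-CoA ligase, and PCCA, a subunit of propionyl-CoA carboxylase, were both at -0.01. Over probesets with signal SUCLA2 was at 0.28 and PCCA at -0.16. Of the remaining genes the kinase gene STK24 differed by 0.59 with 14 of 15 probesets higher. ANKRD10 differed by 0.31 (-0.33 to 1.14) with 16 of 24 probesets higher. Its probesets 3525682 to 3525686 were at -1.60 to -0.92, and those from 3525695 to 3525703 at 0.99 to 2.34. TPT1, a growth-related protein bound to microtubules, was at -0.02 (-0.36 to 0.63) with 5 of 10 probesets higher and levels of 6.33 and 6.03.

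All 3 stretches of the arm had a median above that of all measured genes. With the list divided in gene order into 3 parts of 19, the median difference was 0.51 in the part nearest the centromere (18 measured; 16 higher), 0.41 in the middle part (19 measured; 14 higher) and 0.31 in the part nearest the telomere (19 measured; 15 higher). The interquartile ranges over genes overlapped, from 0.22 to 0.80, from 0.08 to 0.58 and from 0.08 to 0.50. The decline along the arm was small beside that spread. Neighbouring listed genes were about as far apart in difference as any pair. The median gap between the differences of 55 pairs of neighbours was 0.44, and it was 0.40 over all pairs; Spearman's rho between neighbours was -0.14 and Pearson's r -0.06, as a description over genes of the same 2 arrays. DIS3, PIBF1 and KLF5 follow one another in the list at 0.55, 1.03 and -0.32.

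The rest of chromosome 13 was also higher. Of the 160 measured chromosome 13 genes outside the list, 109 (68.1%) were higher in MKN45P, against 54.9% of all measured genes. In these 160 genes, 19 (11.9%) were 2-fold or more higher, against 4.58%, and none was 2-fold lower, against 1.2%. By 1.5-fold or more, 43 (26.9%) were higher, against 12.7%. By the same amount 6 (3.75%) were lower, about the 3.87% of all measured genes. The median of the 160 genes was 0.23 (interquartile range -0.07 to 0.61). Over all 216 measured genes of the chromosome the median was 0.26, the highest of the 23 chromosomes with at least 50 measured genes. The next were chromosomes 2 (0.13) and 18 (0.12), and the lowest was chromosome 19 (-0.06). On chromosome 18, 10.9% of 175 genes were 2-fold higher and 0 were 2-fold lower, close to chromosome 13. On chromosome 2 these shares were 7.93% and 1.08% of 832 genes. With genes below the level filter let in, the median of chromosome 13 was 0.0518. In all, 26 of the 216 genes were 2-fold higher.

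**Figure D4:**
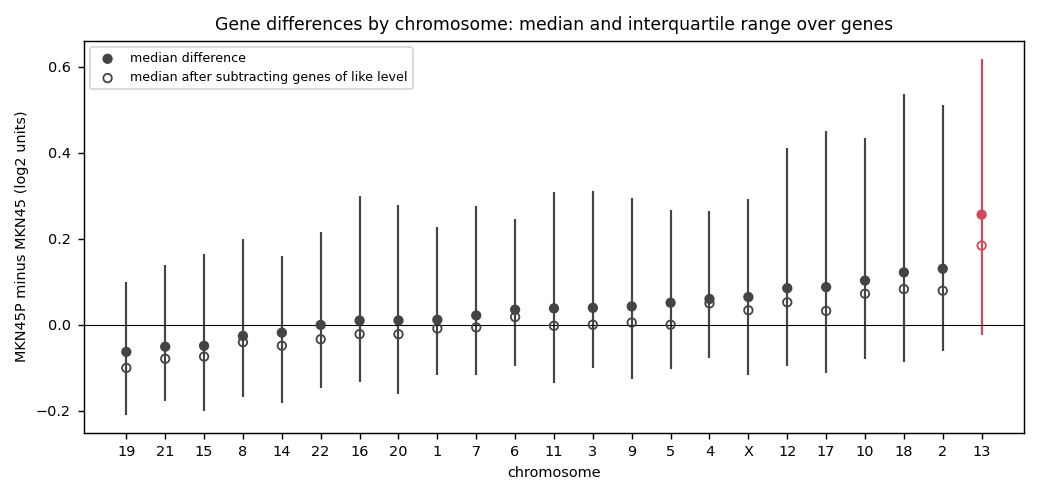
Median difference between MKN45P and MKN45 over the measured genes of each chromosome (filled points, log2 units, with bars for the interquartile range over genes) and the same after subtracting the median of genes of like level (open points). Chromosome 13 (red) is the highest by both, at 0.26 and 0.18.

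Divided into 9 consecutive blocks of 24 genes, chromosome 13 had a block median between 0.21 and 0.47, with 13 to 20 genes higher in each block. Over all measured genes 54.9% were higher, and the block from ZIC2 to ANKRD10, with 13 of 24, was about at that share. Of the 526 blocks of the other chromosomes, 49 (9.32%) had a median at or above the lowest of the 9 medians, and 197 (37.5%) had a median below 0. Chromosome 2 had the largest share of other blocks reaching that lowest median, 12 of 34 (35.3%), then chromosomes 18 (28.6%) and 10 (27.3%). The highest block of all was on chromosome 2, from AFTPH to PCYOX1, with a median of 0.59. With genes of like level subtracted, the 9 medians ran from 0.03 to 0.35, still all above 0, but 193 of the other blocks (36.7%) then reached the lowest of them. The chromosome 2 blocks SLC4A1AP to TTC27 (0.44), LTBP1 to LDHAL3 (0.47) and AFTPH to PCYOX1 (0.46) then stood above all 9. The blocks were laid out with the data in view.

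**Figure D5:**
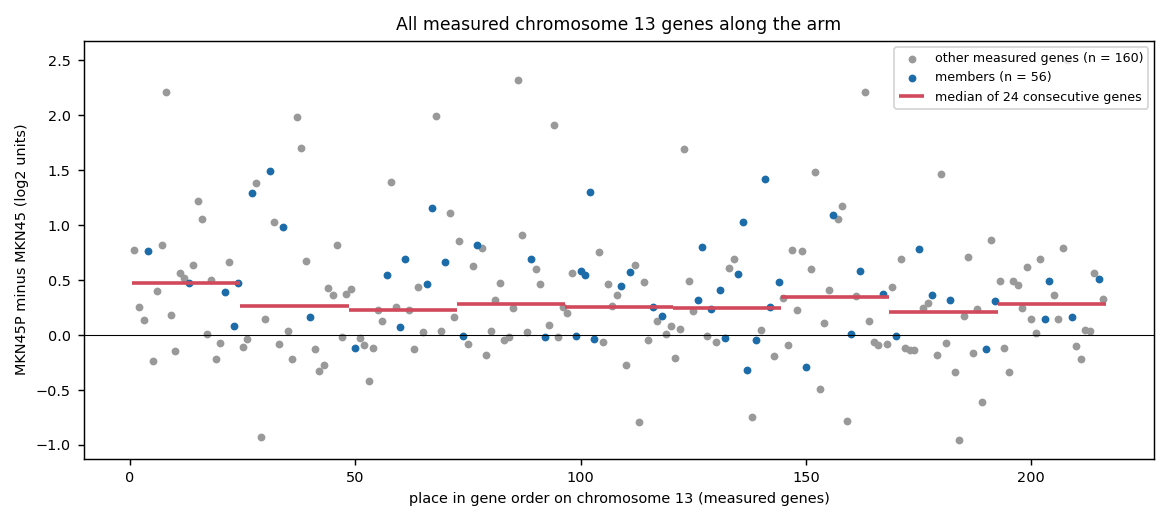
Difference (log2 units) of the 216 measured chromosome 13 genes in gene order, listed genes in blue and the other 160 in grey, with red lines for the median of each block of 24 consecutive genes. All 9 lines lie above 0, from 0.21 to 0.47, while single genes run from -0.95 to 2.50.

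The chromosome 13 genes with the largest differences were not on the list. TMCO3, a transporter gene now named SLC9D1, stood at 6.11 in MKN45 and 8.25 in MKN45P, a difference of 2.50 (1.73 to 3.30) with 20 of 21 probesets higher. EPSTI1, an interferon-induced gene, was higher by 2.31 (0.73 to 4.52) at all 11 probesets and stood at 1.92 in MKN45. CRYL1, the peptide transporter SLC15A1, FAM48A (now SUPT20H) and GTF3A, the factor that starts transcription of 5S RNA genes, were higher by 2.21, 2.21, 1.996 and 1.98. In the other direction IRS2, an adaptor of insulin receptors, had a difference of -0.95 (-1.62 to -0.43) with 18 of 20 probesets lower. SHISA2 (-0.93), TRIM13 (-0.80), RAP2A (-0.79), KLF12 (-0.75) and the mitochondrial cysteinyl-tRNA synthetase CARS2 (-0.61) followed, all within 2-fold.

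Signal level moved with the difference. Over genes off chromosome 13, the median difference rose over 5 classes of level from -0.03, -0.02 and 0.05 to 0.15 and 0.20. On chromosome 13 the 5 medians were -0.03, 0.20, 0.25, 0.48 and 0.51, so the chromosome stood above the others in each class except the lowest, where both were at -0.03. The listed genes had a median level of 4.52, above the 3.20 of all measured genes, and 20 of them fell in the highest class. With the median of genes of like level subtracted from each gene, their median was 0.31, 40 of the 56 genes lay above 0 and 5 stayed 2-fold higher. Over all measured genes, 49.96% lay above 0 and 3.43% were 2-fold higher after the same subtraction. The medians of the 3 parts of the list were then 0.48, 0.35 and 0.18. The chromosome's median was 0.18, again the highest of the 23. The share of G and C in the promoter window hardly differed, with a median of 66.0% in 53 listed genes and 65.3% in 10542 measured genes. The span of the listed genes was longer, with a median of 59.8 kb against 27.3 kb in GRCh38.p14. Chromosome 13 lay above the other chromosomes in 4 of 5 classes of span, and in the class of the shortest genes it had a median of -0.09 over 27 genes against -0.05. With genes of like span subtracted, the median of the listed genes was 0.33 and that of chromosome 13 was 0.23.

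Most probesets of the 56 listed genes were higher in MKN45P: 931 of 1217 (76.5%), against 54.7% of the probesets of all measured genes. Of 827 examined probesets with signal, in 52 listed genes with at least 8 probesets, 15 (1.81%) departed from their gene by 2 or more in log2 units, 8 of them upward and 7 downward, in 11 genes. Over all measured genes the share was 1.69%. RB1 had 3 of them: probeset 3489023 was lower in MKN45P (5.68 and 4.11) while 3489046 (1.81 and 5.31) and 3489058 (2.95 and 6.25) were higher than the gene as a whole. EXOSC8 had 2 upward, 3485869 (3.55 and 7.75) and 3485883 (2.05 and 6.06), and ANKRD10 had 1 in each direction. CDK8 had 1 downward, 3482505 (4.65 and 3.30), in a gene otherwise higher, and TPP2 (3499477), MTMR6 (3506182), RCBTB1 (3513810) and POLR1D (3482984) each had 1 downward. MYCBP2, PIBF1 and STK24 had 1 upward each.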

How the data were processed

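Total RNA of both lines was read on an Affymetrix exon array after reduction of ribosomal RNA, per the labels' protocols. The authors deposited 877986 probeset values per array on a log2 scale, as judged from their range of 1.42 to 13.48. The submitters' processing notes name Partek and hg18; their role, and how background, probe summary and scaling between arrays were handled, is not stated in the labels or notes. Values were used as deposited.

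Symbols came from GEO's platform annotation, and 286871 probesets with exactly 1 symbol were used. The RefSeq table of GRCh38.p14 gave names, chromosome, span and order; all 57 symbols matched, CENPJ through an older name. A gene's difference is the median over its probesets of MKN45P minus MKN45, so it need not equal the difference of the 2 median levels. The 57 genes, role groups and thresholds were chosen with earlier results of these data known. Named in full were genes past 2-fold, the highest and lowest, cancer genes of known role, and the 6 highest and 6 lowest other chromosome 13 genes whose sign 75% or more of their probesets shared. Levels were grouped in 20 classes for subtraction. Alternatives covered scaling, gene summary, filters and reference genes. Python 3.11.15, numpy 2.4.6, pandas 2.3.3, scipy 1.17.1, statsmodels 0.14.6 and matplotlib 3.10.9 were used, and the steps were tested on simulated data.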

Additional observations from a re-analysis of the deposited data

How the results depend on the processing

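The median of the listed genes stayed above 0 under all 12 alternatives, from 0.31 to 0.60, and no listed gene was 2-fold lower under any. Of 120 comparisons of a value with its main value, 110 did not move by more than 1.5 times and 10 did. With only probesets with signal (54 genes), 12 genes were 2-fold higher and 29 were 1.5-fold higher. The medians were 0.61 in the middle part, 0.49 in the telomeric part and 0.56 over chromosome 13. Under this setting 11.4% of all measured genes were 2-fold higher, against 4.58% in the main setting. Their median was 0.09, against 0.03, and their share past 1.5-fold under it is not given here. With the difference of median levels, 14 genes were 2-fold higher, against 9.62% of all measured genes, and 2 were 1.5-fold lower. The share of all measured genes 1.5-fold lower under that setting is not given here. With each array centred on its median, 7 genes were below 0 in place of 11. Of all measured genes 57.8% were then higher, against 54.9% in the main setting. With genes of like level subtracted, the telomeric median was 0.18. With no filter on level, the chromosome's median was 0.0518. Centring on genes of like promoter GC content, centring on genes of like span and leaving out HMGB1 and TPT1 were added after seeing the data and gave medians of 0.41, 0.33 and 0.46 for the listed genes. Signs were compared over the main and 11 other settings, and each measured listed gene had a value in 10 to 12 of them. In every setting that gave them a value, 40 genes were higher and 5 (KLF5, SPRY2, ING1, RCBTB2 and TBC1D4) lower. The other 11 took either sign. CDK8, UCHL3 and RB1 were 2-fold higher throughout. The same count over all measured genes is not given here, so these numbers only describe the list. No paired analysis was possible because each line has 1 array. Of the listed genes 17 had an MKN45 level below 2.77, the 75th percentile over all probesets, and whether differences are understated there was not tested.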
